A study of Mus musculus with 10 samples.

Results

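The transcripts of 7 genes, 5 P2X receptors (P2rx1, P2rx3, P2rx4, P2rx5 and P2rx7) and 2 pannexins (Panx1 and Panx2), were followed in bulk RNA-seq of mouse pancreatic tumors. The genes were chosen by name as channels through which extracellular ATP acts or leaves cells. No rule on their values was used, but earlier results of these data were known. They are 7 of the 37417 genes in the table. The tumors grew s.c. in the right flank of C57BL/6J mice from Panc02 cells, a mouse pancreatic cancer line, and were collected at day 16 from mice aged 12 weeks. The sgCda group (5 tumors) came from cells given a guide to cut Cda, which encodes cytidine deaminase, and the sgNT group (5 tumors) from cells given a nontargeting guide. The cells of both groups also carried a doxycycline-inducible Cas9, had been through puromycin selection and a pulse of doxycycline, and were injected into unedited hosts, whose own cells kept both copies of Cda. The labels list no treatment of the mice. The study's methods describe cloning by limiting dilution and reserve pooled clones for survival experiments. They do not say whether these tumors came from a clone or from the selected population, in which unedited cells can remain. Silencing in the cells was checked in the study by RT-qPCR and western blotting.

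P2X receptors are trimeric cation channels in the plasma membrane that open when ATP binds from outside and let sodium and calcium in. P2X7, which needs far more ATP than the others, is best known in macrophages, where its opening lets potassium out and sets off the NLRP3 inflammasome, and P2X4 is abundant in myeloid cells, largely in lysosomes. Pannexins form large-pore channels through which ATP and other nucleotides leave the cell, and caspases open pannexin 1 in dying cells. UDP and UTP, the nucleotides at the center of the study, act on P2Y and not on P2X receptors, so the P2X family covers the ATP side of the same extracellular pool.

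P2rx7 and P2rx4 lie head to tail on the plus strand of chromosome 5 (GRCm38), P2rx7 at chr5:122643911-122691432 with 13 exons and P2rx4 at chr5:122707544-122729738 with 12, and 16111 bases separate them. A second pair, P2rx1 (chr11:72999103-73015200, 12 exons) and P2rx5 (chr11:73160421-73172685, 13 exons), lies on the plus strand of chromosome 11 with 145220 bases between the genes. P2rx3 is on the minus strand at chr2:84998583-85037462, Panx1 on the minus strand at chr9:15002128-15045478 and Panx2 on the plus strand at chr15:89059734-89073567. The 250 bases before the annotated transcript starts of the 3 members with the highest levels are given here to set the promoters of the chromosome 5 neighbors side by side with that of Panx1. They were taken from RefSeq (GRCm38.p6), are written 5′ to 3′ on the gene's strand, and have each CG dinucleotide in capitals. RefSeq gave P2rx7 a pair of starts 6456 bases apart, and gene counts do not separate transcripts from one or the other.

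P2rx4, start of the transcript: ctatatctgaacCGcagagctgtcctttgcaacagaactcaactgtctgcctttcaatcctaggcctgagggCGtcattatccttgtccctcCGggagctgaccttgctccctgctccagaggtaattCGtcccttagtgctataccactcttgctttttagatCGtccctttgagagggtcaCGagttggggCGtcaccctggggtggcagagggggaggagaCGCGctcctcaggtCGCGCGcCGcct
P2rx7, upstream start: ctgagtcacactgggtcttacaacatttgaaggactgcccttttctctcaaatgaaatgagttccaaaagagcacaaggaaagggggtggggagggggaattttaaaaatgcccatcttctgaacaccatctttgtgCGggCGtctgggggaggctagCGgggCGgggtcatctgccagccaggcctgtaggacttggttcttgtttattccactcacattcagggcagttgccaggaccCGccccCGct
P2rx7, downstream start: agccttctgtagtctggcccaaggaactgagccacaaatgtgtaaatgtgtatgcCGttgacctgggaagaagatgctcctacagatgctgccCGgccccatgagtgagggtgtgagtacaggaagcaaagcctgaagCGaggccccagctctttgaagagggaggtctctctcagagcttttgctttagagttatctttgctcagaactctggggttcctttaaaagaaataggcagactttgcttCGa
Panx1, start of the transcript: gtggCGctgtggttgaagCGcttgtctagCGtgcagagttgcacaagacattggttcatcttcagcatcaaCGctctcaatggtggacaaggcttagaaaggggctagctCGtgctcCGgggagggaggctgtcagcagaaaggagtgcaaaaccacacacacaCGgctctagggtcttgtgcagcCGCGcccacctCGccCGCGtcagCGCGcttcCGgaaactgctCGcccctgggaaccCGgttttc

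These windows are chr5:122707294-122707543 for P2rx4, chr5:122643677-122643926 and chr5:122650133-122650382 for the upstream and downstream starts of P2rx7, and chr9:15045479-15045728 for Panx1. The window of P2rx4 held 13 CG dinucleotides, those of P2rx7 held 6 and 4, and that of Panx1 held 17, against a median of 6 over 32851 windows of this length. GC content was 57.2% at P2rx4, 53.6% and 50.0% at P2rx7, and 59.6% at Panx1, with a median of 52.4% over all windows. The neighbors on chromosome 5 thus differed in CG content, and P2rx4 was closer to Panx1 by this count.

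Assigned counts ran from 28051907 to 39484964 per tumor, so that a floor of 3 counts equaled 0.0754 to 0.106 CPM (edgeR's normalized count, relative to library sizes scaled by trimmed mean of M values, TMM). Tumor sgCda_4 stood apart with the fewest counts and the largest mitochondrial share (5.82%). It also had the largest share of uniquely aligned reads that matched no counted feature (18.4%). sgCda_3 and sgCda_4 lay at opposite ends of the first principal component. In CPM, Cda itself measured 12.1 ± 1.76 (SD, n = 5) among sgNT and 9.77 ± 2.34 (n = 5) among sgCda tumors, with overlapping groups (10.1 to 14.7 and 7.47 to 12.5 CPM), a log2 fold change of −0.30 ± 0.17 (SE) with an unadjusted p = 0.0963 in edgeR's quasi-likelihood test. An edited gene can still be transcribed and host cells contribute Cda RNA, so its transcript does not test the label. Macrophage markers were abundant in both groups (11 of 11 tested, summed CPM 3515 to 4984 in sgNT and 3482 to 4912 in sgCda tumors), T cell markers summed to 307.2 to 486.3 and 221.3 to 723.4 CPM, and skeletal muscle markers varied most, from 1.74 to 548.1 and from 1.49 to 2234 CPM. Of the epithelial markers 6 of 7 were tested, Cldn4 being too low, and their sums ran from 590.5 to 922.9 and from 569.1 to 1016 CPM.

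Per kilobase of merged exons (RPKM), P2rx4 was the highest member in every tumor, at 9.10 ± 1.02 (SD over 10 tumors), followed by P2rx7 at 5.64 ± 0.652 and Panx1 at 3.07 ± 0.401. Each of these genes lay above the next in 10 of 10 tumors, and the ranges of neighbors in this order did not overlap, down to P2rx5 at 0.912 ± 0.233. By the same measure P2rx4 exceeded 62.7% of the genes tested, P2rx7 50.1% and Panx1 36.4%, so that even the leading channels were mid-level transcripts of the tumor. P2rx5 and P2rx3 (0.744 ± 0.489 RPKM) did not differ beyond their spread, since P2rx5 was the higher one in 7 of 10 tumors. P2rx1 was far lower at 0.190 ± 0.0830 RPKM.

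Panx2, a pannexin best known from brain, was at the limit of detection. It was counted 1, 1, 1, 1 and 2 times in sgNT_1 to sgNT_5 and 0, 1, 1, 4 and 3 times in sgCda_1 to sgCda_5, 15 counts in all. Only sgCda_4 passed the limit of 3 counts, so the name of the family holds for Panx1 but these data carry no usable level of Panx2. It was under the filter for low counts and was not tested. The family members outside the list were also low: P2rx2 had 0 to 4 counts per tumor, Panx3 had 0 counts in 9 tumors and 4 in sgNT_4, and P2rx6 measured 0.471 ± 0.182 RPKM.

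**Figure D1:**
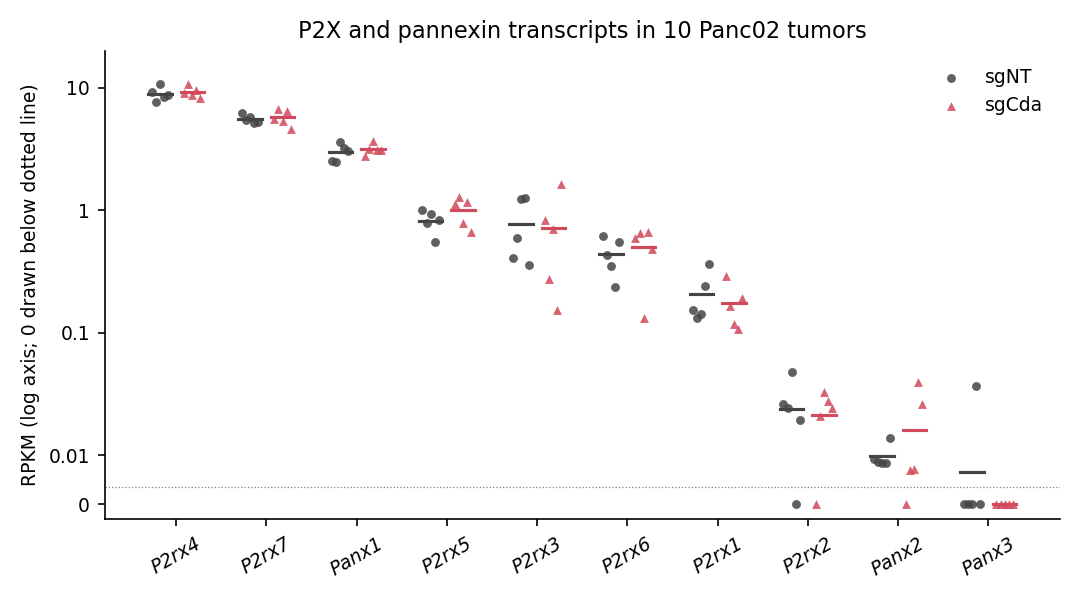
RPKM (log axis) of the 10 P2X and pannexin genes in each tumor, ordered by mean level, with gray circles for sgNT, red triangles for sgCda and lines at group means (n = 5 each). Tumors with 0 counts are drawn below the dotted line. P2rx4, P2rx7, Panx1 and P2rx5 form separate steps, P2rx3 spreads from 0.152 to 1.63 RPKM, and P2rx2, Panx2 and Panx3 lie below 0.05 RPKM in every tumor.

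To ask whether targeting Cda in the cancer cells went with a change in these channels, sgCda was compared with sgNT tumors across 15299 genes. None of the 6 members tested passed an adjusted p of 0.05 in edgeR's quasi-likelihood test with Benjamini-Hochberg adjustment (adjusted p = 0.9996 for each), where 0% of all genes tested did. At an unadjusted p under 0.05 the count was also 0 members, beside 2.5% of all genes (382 genes, 236 higher and 146 lower in sgCda), and no member had groups without overlap, beside 0.601% of all genes (92 genes). P2rx4, P2rx5, P2rx7 and Panx1 had positive fitted values and P2rx1 and P2rx3 negative ones, with a median log2 fold change of 0.051 against 0.0078 over all genes tested. In bulk tumors, fewer cells of a type and less RNA per cell cannot be told apart. The p-values set the group difference against the spread between these tumors. Each group grew from cells given its own guide. An effect of targeting Cda therefore cannot be told apart from another difference between the injected cell populations.

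P2rx4 encodes the P2X4 channel. Its level in sgNT_1 to sgNT_5 was 64.3, 53.4, 75.5, 59.0 and 61.5 CPM, and in sgCda_1 to sgCda_5 it was 63.2, 75.5, 61.5, 67.2 and 58.2 CPM. The highest tumors, sgNT_3 and sgCda_2, came from different groups and the ranges overlapped almost wholly. The log2 fold change was 0.05 ± 0.10 (SE), and the 95% confidence interval of the change ran from −10.8% to 20.9%. With a biological coefficient of variation of 0.127 it was the steadiest member.

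P2rx7 encodes the receptor that opens the way to NLRP3. The sgNT tumors held 37.3, 32.4, 34.1, 30.5 and 31.4 CPM and the sgCda tumors 33.3, 40.1, 32.1, 38.4 and 27.3 CPM, again in replicate order. Both the highest tumor (sgCda_2) and the lowest (sgCda_5) were sgCda tumors, so that the spread was wider there (SD 5.12 against 2.67) while the means were 34.2 and 33.1 CPM. The log2 fold change was 0.05 ± 0.10, with an interval from −11.9% to 21.1%. Within a tumor, the ratio of P2rx7 to P2rx4 counts was 0.530 in sgNT and 0.523 in sgCda tumors (geometric means, range over all tumors 0.453 to 0.607), a difference of −0.02 on the log2 scale (exact two-sided permutation test, p = 0.857, adjusted p = 0.968 over 3 ratios, n = 5 each). This ratio does not depend on how libraries are scaled, and sgCda_5, the tumor lowest in P2rx7, was low in P2rx4 too.

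P2rx5 encodes P2X5, a receptor found among other places on lymphocytes and in muscle. It measured 2.39, 1.90, 2.23, 1.32 and 1.99 CPM in the sgNT tumors and 2.68, 3.07, 1.88, 2.80 and 1.58 CPM in the sgCda tumors. sgCda_1, sgCda_2 and sgCda_4 lay above every sgNT tumor, while sgCda_3 and sgCda_5 lay inside the sgNT range. Its log2 fold change of 0.29 ± 0.23 was the largest positive one of the family and had its smallest unadjusted p, 0.242 (edgeR, adjusted p = 0.9996), with an interval from −14.5% to 74.7%. Relative to P2rx4 within each tumor, P2rx5 stood at 0.0312 in sgNT and 0.0361 in sgCda tumors (difference 0.21 on the log2 scale, exact permutation test, p = 0.286, adjusted p = 0.857).

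P2rx3 encodes the P2X3 subunit of pain-sensing neurons and was the most variable member. The sgNT tumors measured 1.15, 1.64, 3.44, 3.49 and 1.01 CPM, and the sgCda tumors 2.33, 0.761, 1.96, 0.425 and 4.56 CPM, from 12 counts in sgCda_4 to 144 in sgCda_5. The extremes of this 10.7-fold range were both sgCda tumors. The group means were 2.14 ± 1.23 and 2.01 ± 1.63 CPM, with a log2 fold change of −0.09 ± 0.59 whose interval, −61.7% to 129%, spans large losses as well as large gains. Its coefficient of biological variation, 0.639, exceeded that of 92.3% of 936 genes of similar level.

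Markers of sensory neurons were split in these tumors. Of 9 markers 5 were under the filter, among them the sodium channel genes Scn10a (0 to 3 counts per tumor) and Scn11a (1 to 10). The other 4 were tested, Trpv1 at 12 to 422 counts per tumor (mean 7.17 CPM), Pou4f1 at 45 to 71 (1.79 CPM), Avil at 15 to 95 (1.40 CPM) and Prph at 3 to 21 (0.443 CPM). Trpv1, a heat-sensing channel, thus stood above P2rx3 on average by CPM, which is not a comparison per length. The summed set ran from 6.16 to 14.4 CPM in the sgNT and from 5.01 to 17.7 CPM in the sgCda group, and its part in the P2rx3 level was not tested. P2rx3 shares 51 exonic bases with Ssrp1, which is read from the opposite strand, encodes a histone chaperone, and stood at 246.3 ± 18.5 CPM. Over the 10 tumors P2rx3 and Ssrp1 had r = 0.60 and rho = 0.62 in log2 CPM as a description. The strand setting of the counting was not given in the sources used here, and the part of the shared bases in the P2rx3 counts was not tested.

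P2rx1 encodes the P2X1 channel of platelets and smooth muscle, and was the lowest member tested. The sgNT tumors measured 0.405, 0.348, 0.372, 0.628 and 0.955 CPM and the sgCda tumors 0.759, 0.435, 0.308, 0.283 and 0.506 CPM, which rests on 8 to 38 counts per tumor. sgNT_5 held the highest value and sgCda_4 the lowest, and only sgCda_1 exceeded the sgNT mean among the sgCda tumors. The log2 fold change of −0.25 ± 0.37 (interval −52.0% to 47.8%) turned to 0.07 without sgNT_5. Of the platelet markers, Gp9, Gp5, Gp6 and Treml1 were under the filter, and the summed set ran from 10.2 to 13.1 CPM in the sgNT and from 7.53 to 15.1 CPM in the sgCda group.

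Panx1 encodes the widely expressed release channel. It measured 15.1, 14.9, 21.8, 19.5 and 18.4 CPM in the sgNT tumors and 16.8, 19.2, 22.1, 18.6 and 18.7 CPM in the sgCda tumors. The lowest pair, sgNT_1 and sgNT_2, belonged to sgNT, and the other tumors of both groups shared one range. The log2 fold change was 0.09 ± 0.12, with an interval from −11.2% to 27.3% and 4 of 5 sgCda tumors above the sgNT mean.

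**Figure D2:**
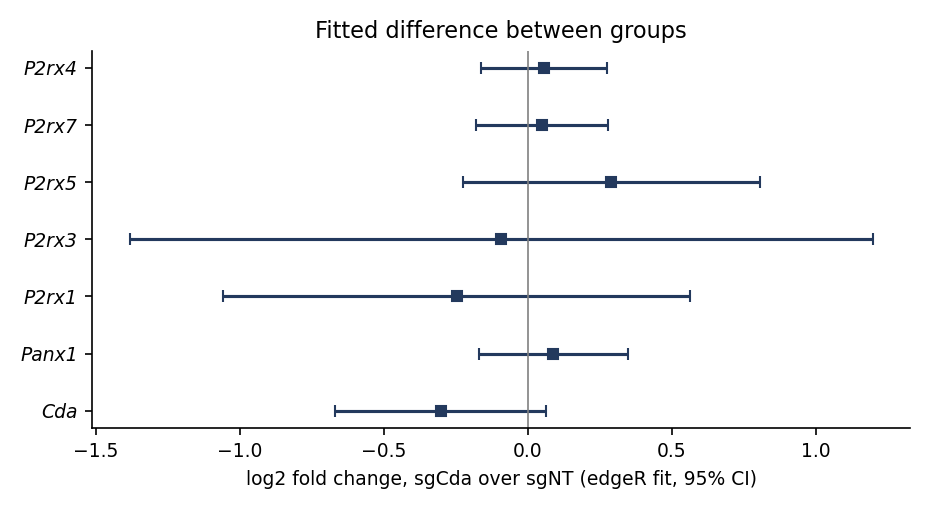
Log2 fold change of sgCda over sgNT for the 6 members tested and for Cda, with 95% confidence intervals from the edgeR fit (n = 5 tumors per group). Every interval crosses 0, those of P2rx4, P2rx7 and Panx1 are narrow, and that of P2rx3 runs from −1.38 to 1.20.

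Of the 15 pairs of tested members, 1 passed the adjustment by r and 3 by rho, all among P2rx4, P2rx5 and P2rx7. P2rx5 followed P2rx7 with r = 0.85 (p = 0.00203, adjusted p = 0.0304) and rho = 0.92 (p = 0.00048, adjusted p = 0.0072) in log2 CPM over 10 tumors, by permutation tests with 100000 resamples adjusted over these pairs. Only 32 of 12951 other genes (0.247%) followed P2rx7 as closely. These pairs were examined after the values had been seen. The relation held at r = 0.86 without sgCda_2 and sgNT_4, the tumors farthest from the median of P2rx5, at 0.83 without sgCda_4, and at 0.88 with values centered on their group means, and r ran from 0.80 to 0.90 when each tumor was left out in turn.

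P2rx4 followed the same order of tumors less tightly. Against P2rx7 it had r = 0.68 (permutation p = 0.0319, adjusted p = 0.0999) and rho = 0.84 (adjusted p = 0.0265), and against P2rx5 r = 0.67 (adjusted p = 0.0999) and rho = 0.81 (adjusted p = 0.0343). Without the farthest tumors, sgNT_3 and sgCda_2, these r were 0.64 and 0.66. Of the 12951 genes, 391 (3.02%) reached at least the r of P2rx4 with P2rx7, so a value of this size was not rare. Thus only the rank correlations of P2rx4 passed the adjustment.

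P2rx3 ran against P2rx7, with r = −0.77 (permutation p = 0.00922, adjusted p = 0.0692) and rho = −0.70 (adjusted p = 0.0927), neither past the adjustment. Of the 12951 other genes, 209 (1.61%) had an r with P2rx7 at least as negative. Against P2rx5 it had r = −0.69 (adjusted p = 0.0999) and rho = −0.72 (adjusted p = 0.0895). Without sgCda_4 and sgCda_5, which hold the lowest and the highest P2rx3, r with P2rx7 was −0.59. Panx1 and P2rx7, often paired as release channel and receptor, showed r = −0.13 (permutation p = 0.723, adjusted p = 0.724). The remaining pairs with Panx1 or P2rx1 had adjusted p from 0.459 to 0.724.

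**Figure D3:**
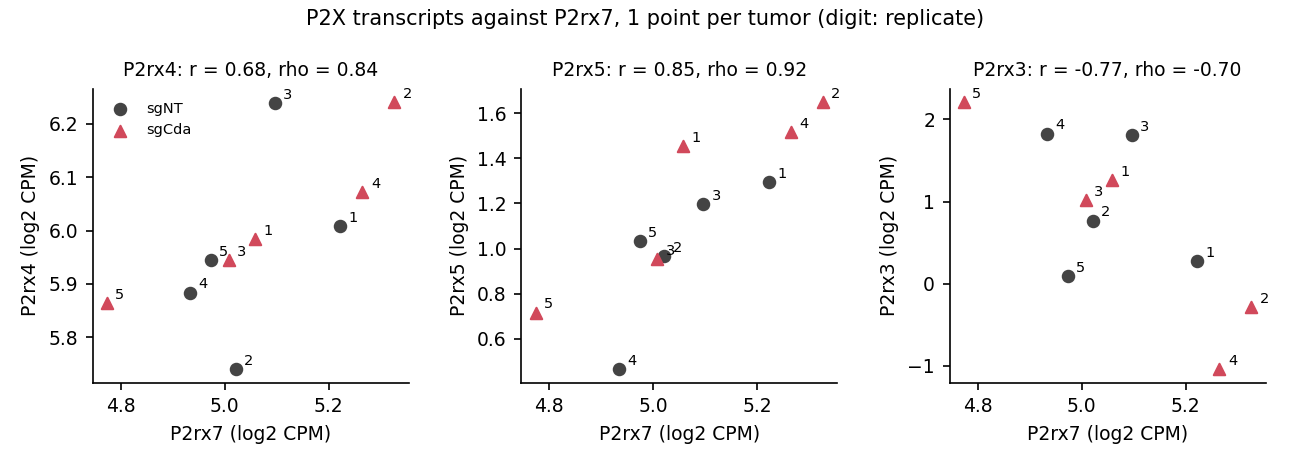
Log2 CPM of P2rx4, P2rx5 and P2rx3 (vertical axes) against P2rx7 (horizontal axes), 1 point per tumor, with gray circles for sgNT, red triangles for sgCda and the replicate number beside each point. P2rx5 rises with P2rx7 across both groups (r = 0.85), P2rx4 rises apart from sgNT_2 and sgNT_3, and P2rx3 falls (r = −0.77).

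Levels of the members were also set against scores of 8 cell types, each the mean log2 CPM of its markers, in 48 pairs. None passed an adjusted p of 0.05. The closest was P2rx1 with the fibroblast score (r = 0.86, permutation p = 0.00119, adjusted p = 0.0571, and rho = 0.88, p = 0.00155, adjusted p = 0.0744), which was 0.74 without sgNT_5 and sgCda_4 and 0.86 with values centered on group means. It was lowest without sgNT_5, at 0.80 with an adjusted p = 0.506, and highest without sgCda_3, at 0.90 with an adjusted p = 0.0432, both by permutation. All 8 fibroblast markers were tested, and their summed CPM ran from 3124 to 7040 in sgNT and from 3757 to 5784 in sgCda tumors. The tumor richest in fibroblast markers, sgNT_5, thus also held the most P2rx1, and whether the fibroblast content accounts for it was not tested.

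P2rx4 and P2rx7, both known from macrophages, had r = 0.43 (permutation p = 0.22, adjusted p = 0.80) and 0.09 (adjusted p = 0.914) with the macrophage score. For P2rx4, r was 0.87 without sgCda_3 and sgCda_4, the tumors with the highest and the lowest score, and sgCda_4 combined the lowest score with the third highest P2rx4. Panx1 had its highest r with the skeletal muscle (0.64, adjusted p = 0.751), epithelial (0.61, adjusted p = 0.751) and macrophage scores (0.61, adjusted p = 0.751), none past the threshold. With the macrophage score as a covariate, a choice made after seeing the data, still 0 members passed.

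**Figure D4:**
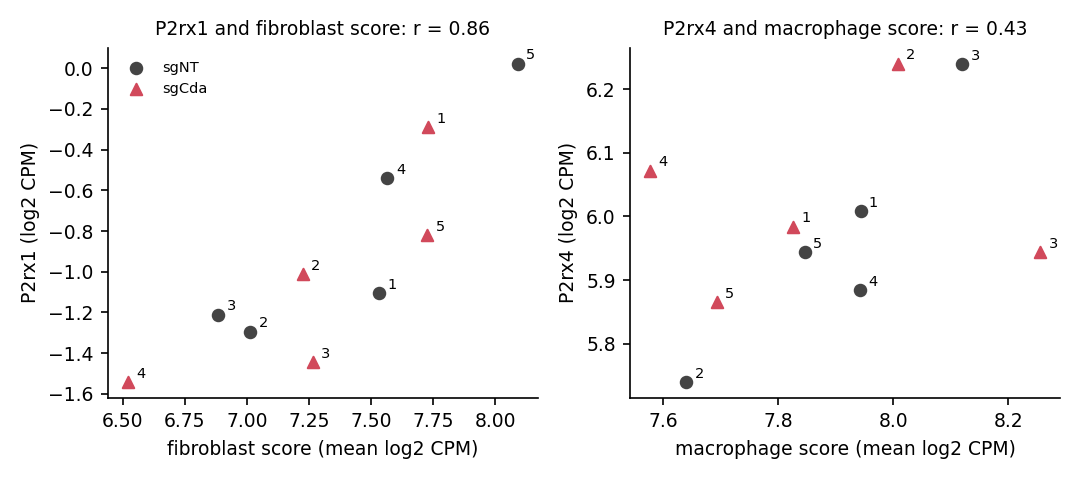
Log2 CPM of P2rx1 against the fibroblast score and of P2rx4 against the macrophage score (mean log2 CPM of the markers), 1 point per tumor, with gray circles for sgNT, red triangles for sgCda and replicate numbers beside the points. P2rx1 rises with the fibroblast score in both groups. P2rx4 rises with the macrophage score within sgNT (r = 0.92) but hardly within sgCda tumors (r = 0.10). In that panel sgCda_3 and sgCda_4 depart from the line of the other tumors.

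The genes whose levels most resembled each member over the 10 tumors were found among 12953 genes by Pearson's r in log2 CPM. For P2rx4 they were Cd86 (r = 0.96), which encodes a costimulatory ligand of antigen-presenting cells, Ctsz (0.94), a lysosomal protease, and Clec2d (0.94). P2rx7 was closest to Fgd2, Acp2 and Tmem131l (0.94, 0.93 and 0.93), Acp2 being a lysosomal acid phosphatase, and P2rx5 to Clec2i, Tbc1d8 and Tspan33 (0.95, 0.95 and 0.94). Panx1 was closest to Ube2n, Atp6v0c and Mbd2 (0.94 each), P2rx3 to Fbxo30, Lsm14a and Dut (0.95, 0.94 and 0.94), and P2rx1 to Adgrd1, Elk1 and Rasl11a (0.90, 0.89 and 0.89). These are the extremes of a large search over few tumors and are given as a description.

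Around the channels, 6 lists of genes were read from the same fit, and none of their genes passed an adjusted p of 0.05 (adjusted p = 0.9996 for each gene named, edgeR). For the sign counts that follow, 52.9% of all genes tested had a positive fitted value, and the lists were not tested as groups. Of 11 genes of the P2X7 inflammasome axis, 6 had positive and 5 negative fitted values, with a median log2 fold change of 0.0002, and 1 had an unadjusted p under 0.05. That gene, Il1b, encodes the cytokine whose release P2X7 is known for, and it measured 25.4 ± 4.88 CPM in the sgNT and 18.7 ± 4.18 CPM in the sgCda group. The groups overlapped, although all sgCda tumors lay below the sgNT mean. The log2 fold change was −0.44 ± 0.17 (unadjusted p = 0.0264, adjusted p = 0.9996, edgeR). Ninj1, which ruptures the membrane of dying cells, was the highest of the list per length and had a log2 fold change of −0.01 ± 0.14.

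Of 10 tested genes of other routes of nucleotide release, 2 had positive and 8 negative fitted values, with a median of −0.07 and none at an unadjusted p under 0.05. Gja1, the connexin 43 hemichannel and the highest of them per length, measured 361.3 ± 31.4 CPM in the sgNT and 319.1 ± 33.8 CPM in the sgCda group, a log2 fold change of −0.18 ± 0.09 (unadjusted p = 0.0724, edgeR). Slc17a9, the vesicular nucleotide transporter, went the other way at 2.67 ± 0.577 against 5.07 ± 4.67 CPM (0.92 ± 0.46, unadjusted p = 0.0689, edgeR), but a single sgCda tumor reached 13.4 CPM. Neither difference held after adjustment.

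Of 9 genes that open pannexin 1 in dying cells or clear those cells, 1 had a positive and 8 had negative fitted values (median −0.10). Axl, a receptor for dying cells and the highest of that list per length, had a log2 fold change of −0.12 ± 0.07 (unadjusted p = 0.116, edgeR). The 10 effectors of calcium entry split into 4 positive and 6 negative values with a median of −0.003. Among them were Ppp3ca, a catalytic subunit of calcineurin (0.18 ± 0.15), and Nfatc3, one of its targets (−0.12 ± 0.07). Neither list held a gene with an unadjusted p under 0.05.

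Upstream of the receptors, ectoenzymes set how much ATP or NAD is present. Of the tested genes that break down extracellular ATP, 4 had positive and 2 negative values (median 0.02). Entpd1, encoding CD39, was the highest per length and measured 123.9 ± 11.7 CPM in the sgNT and 119.9 ± 18.5 CPM in the sgCda group (log2 fold change −0.05 ± 0.11), and Alpl, an alkaline phosphatase at under 1 CPM in either group on average, had 0.56 ± 0.32. All 4 tested genes of NAD-dependent gating of P2X7 had positive values (median 0.17). Bst1, an NAD-consuming ectoenzyme, differed by 0.02 ± 0.30, and Art1, an ADP-ribosyltransferase of muscle that had 0 counts in at least 1 tumor of each group and up to 4.90 CPM in another, by 1.78 ± 1.35. The skeletal muscle markers had fitted values of the same sign (8 of 8 tested positive, median 1.68, none at an unadjusted p under 0.05, summed CPM 1.74 to 548.1 in the sgNT and 1.49 to 2234 in the sgCda group), and their part in the value of Art1 was not tested.

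**Figure D5:**
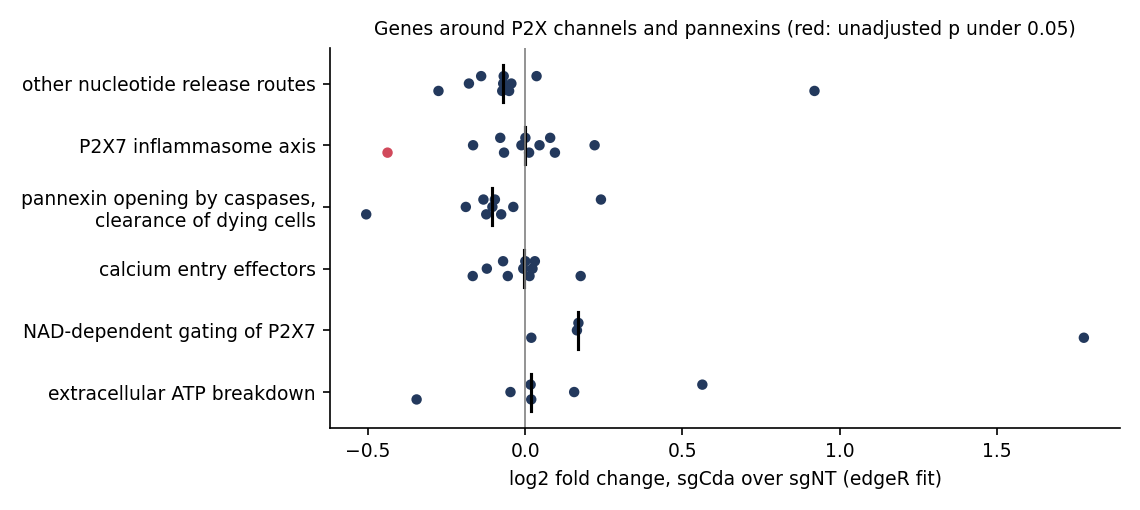
Log2 fold change of sgCda over sgNT (edgeR fit, n = 5 tumors per group) for the tested genes of 6 lists, 1 point per gene, with black bars at list medians and red for an unadjusted p under 0.05. Il1b at −0.44 is the single red point, and the list medians lie between −0.10 and 0.17.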

How the data were processed

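Total RNA of 10 s.c. Panc02 tumors was extracted by the authors with TRIzol, and polyadenylated RNA was made into stranded libraries and sequenced from one end. Reads were aligned with TopHat and Bowtie (Bowtie2 in the submitters' processing notes) to mm10 (GRCm38) and counted with HTSeq. The values deposited by the authors are raw gene counts under Ensembl identifiers, with no normalization. HTSeq leaves out reads that overlap more than 1 gene. Aligner parameters and the strand setting are not given in the sources used here. Group and replicate number were read from each sample's title.

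The 5 HTSeq summary lines were dropped: reads that matched no counted feature made up 10.3% to 18.4% of uniquely aligned reads. All 37417 genes entered filterByExpr (minimum count 10, minimum total 15), 15299 passed, and the groups were compared with the quasi-likelihood test of edgeR (edgeR 4.0.16, R 4.3.3) under TMM scaling, no covariate and Benjamini-Hochberg adjustment over all genes tested. The depth was 28051907 to 39484964 assigned counts. CPM were computed in edgeR from TMM-scaled library sizes, and RPKM divide these by kilobases of merged exons (GENCODE, GRCm38). Log2 CPM carried a prior count of 2, and ratios within a tumor a pseudocount of 0.5. These ratios were compared between groups by exact permutation over 252 assignments, and correlations were tested by 100000 resamples. The fit was tested on simulated data. DESeq2 1.42.0 and limma 3.58.1 gave alternatives. Promoter windows came from RefSeq, which had entries for P2rx1, P2rx4, P2rx7 and Panx1.

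Members, gene lists and marker sets were chosen with earlier results of these data known. Named were all members, Cda, and of each list the tested gene of smallest p, the one of highest level per length and any with an unadjusted p under 0.05, plus the 3 genes most correlated with each member. Markers of B cells, mast cells, endothelial cells, smooth muscle, Schwann cells, keratinocytes and adipocytes were also read from the fit.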

Additional observations from a re-analysis of the deposited data

Results flagged for a closer look

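Among 34 groups of 5 tumors examined for members and cell type scores, 2 held a tumor that lay far from the other 4, where chance alone gives about 1 in 20 groups, or 1.7. The T cell score of sgNT_3 was 5.35 (mean log2 CPM), and the other sgNT tumors lay between 4.75 and 4.91. The neutrophil score of sgCda_3 was 2.05, and the other sgCda tumors lay between 3.34 and 3.72. No member was far out in either group, and the part of either score in the levels of the members was not tested.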

How the results depend on the processing

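No gene and no member passed an adjusted p of 0.05 under DESeq2's size factors, library totals, a looser filter (any tumor with 1 count), a stricter filter (10 counts in every tumor), DESeq2's Wald test, limma-voom, the replicate block, leaving out each tumor in turn, or the 2 alternatives chosen after seeing the data. The number of genes at an unadjusted p under 0.05 rose from 382 to 830 of 26302 with the looser filter and to 747 without sgCda_3, and ran from 280 to 747 when each tumor was left out. P2rx5 (0.17 to 0.41 with each tumor left out) and Panx1 (0.03 to 0.17) kept a positive log2 fold change. The others changed sign. P2rx4 ran from −0.0016 to 0.13, turning to −0.00056 without sgNT_2 and −0.0016 without sgCda_2, P2rx7 from −0.014 to 0.118, turning to −0.014 without sgCda_2, and P2rx1 from −0.501 to 0.0671, turning to 0.0671 without sgNT_5 and 0.0464 without both sgCda_3 and sgCda_4. P2rx3 ran from −0.64 to 0.16, turning to 0.15 without sgNT_3, 0.14 without sgNT_4, 0.12 without sgCda_2, 0.16 without sgCda_4 and 0.25 without both sgCda_3 and sgCda_4. The P2rx7 to P2rx4 log2 ratio (sgCda minus sgNT) ran from −0.0783 to 0.0278, turning to 0.011 without sgNT_1, 0.0278 without sgNT_2 and 0.0182 without sgCda_5, and that of P2rx5 to P2rx4 from 0.10 to 0.31. In each case the cause was not tested. P2rx1 was not tested under the stricter filter. Among the alternatives for correlations with cell type scores, 623 values kept their side of the threshold and 1, P2rx1 with fibroblasts without sgCda_3, crossed it. The size of r could still depend on the score. With the median of the markers in place of their mean, P2rx3 and the epithelial score went from r = 0.30 to 0.85 (permutation, adjusted p = 0.0605). P2rx1 and the fibroblast score stayed at 0.86.

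The tumors came from different mice, and the labels do not say whether same-numbered tumors shared a batch. Same-numbered tumors deviated from their group means with correlations of −0.03, −0.02, 0.33, −0.43 and 0.34. Those with different numbers ran from −0.63 to 0.69, so these values cannot decide whether the numbers mark a pairing. With the replicate block, log2 fold changes were 0.06 for P2rx4, 0.04 for P2rx7, 0.27 for P2rx5, 0.10 for Panx1, −0.22 for P2rx1 and −0.30 for P2rx3, and no call changed. Counts of 8 to 38 for P2rx1 and 0 to 4 for Panx2 limit what these libraries can show of them.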

Other observations

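Across the cell type sets read from the same fit, the tested markers of skeletal muscle all had positive fitted values (8 of 8, median log2 fold change 1.68, from 1.35 to 1.90), beside 52.9% positive over all genes tested, with 0 past an adjusted p of 0.05 in edgeR's quasi-likelihood test and 0 at an unadjusted p under 0.05. The 9 T cell markers were also all positive, at a median of 0.11, and 7 of 9 endothelial markers were negative, at a median of −0.22, again with none past either threshold. The mean T cell score was nearly equal, at 4.93 in the sgNT and 4.95 in the sgCda group (mean log2 CPM). That score was highest in sgCda_3 (5.83) and lowest in sgCda_5 (4.35) and sgCda_4 (4.39). An unadjusted p under 0.05, found for 2.5% of all genes tested, occurred for 1 B cell (4 tested, median 0.05) and 1 epithelial marker (6 tested, median 0.12). It also occurred for 1 Schwann cell marker (5 tested, median −0.002), and each was higher in sgCda. Mast cell (6 tested, median 0.08), smooth muscle (7 tested, median −0.22), keratinocyte (2 tested, median −0.34) and adipocyte markers (5 tested, median 0.53) held none. Sensory neuron markers that passed the filter, 4 in all, had a median of 0.29, platelet markers (4 tested) 0.13, macrophage markers (11 tested) −0.01, fibroblast markers (8 tested) −0.06 and neutrophil markers (5 tested) 0.39.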
